A study of Eublepharis macularius with 4 samples.

Results

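SOX2 was followed through the cells of the adult leopard gecko jaw, as the single row of that name among the 24025 features of the deposited tables. The gene lies on chromosome 6 of assembly MPM_Emac_v1.0, from 15170519 to 15173274, and is annotated as protein coding. The cells were split by a rule on other genes: 10 or more UMIs (unique transcript tags) of LOC129339097 made a cell epithelial, and 5 or more UMIs of COL1A1, COL1A2, DCN and LUM together made it mesenchymal. Of 8612 cell barcodes 2541 met the first rule alone, 1314 the second alone, 70 both, and 4687 neither; the last are called other. LOC129339097, on chromosome 12 from 38983034 to 39021928, is a protein-coding locus with no gene name in the annotation.

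Soft tissue holding unerupted teeth and dental lamina was taken from the jaws of 2 adult geckos, LG252 and LG255, and 2 libraries were made from each. LG252 was digested at 37 °C for 4 to 5 h with collagenase D (1.5 U/ml) and dispase II (2.4 U/ml), and LG255 at 4 °C for 6 h with a protease of Bacillus licheniformis (10 mg/ml). All 4 libraries held live cells sorted by exclusion of propidium iodide and were sequenced as droplet single-cell RNA libraries. Animal and digestion change together and cannot be told apart. The titles call the libraries biological replicates, but nothing says whether the pair from an animal came from separate pieces of tissue, so p-values measure the spread between libraries, which may be technical, and leave out differences between animals.

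SOX2 is a transcription factor of the HMG-box family. It is known for keeping pluripotent cells undifferentiated, and later in life it is found in progenitor cells of many epithelia of the foregut and mouth. In mice it marks epithelial stem cells of the growing incisor, and in reptiles that replace their teeth it has been described in the dental lamina, the epithelial band from which new teeth form.

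The libraries held 755 to 4355 barcodes and 4535439 to 20754804 UMIs. Between 2 and 8 barcodes were shared by any pair of libraries. By markers outside the rule, 7 of 7 tested genes of a check list (EPCAM, KRT8, KRT18, TP63, CLDN7, DSP, PERP) were higher in epithelial than in mesenchymal cells, where 15.0% of all 12275 features tested were higher, and 8 of 8 collagen and stromal genes of a mesenchymal list were lower, as were 12.6% of all features (edgeR test). Against the other cells 3 of the 7 epithelial genes (DSP, PERP and TP63) were higher, beside 839 of all 12275 features, and 4 did not pass. The summed check list stood at 2732 and 3190 CPM in the epithelial cells of LG252 and at 134 and 404 in its other cells, but at 2804 and 2664 in the epithelial cells of LG255 against 1976 and 1656 in its other cells, so the rule left many cells with epithelial transcripts in the other class of LG255. The median depth of the epithelial cells was 11958 and 8402 UMIs in LG252 (replicates 1 and 2) and 6863 and 9010 in LG255, and their median mitochondrial share was 1.12% and 1.50% against 4.84% and 3.79%. Counting intervals below are exact, at 95%, and cover counting error only.

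SOX2 was spread widely through the epithelium of every library and was close to absent from the mesenchyme. In LG252, 470 of 567 epithelial cells of replicate 1 (82.9%, exact binomial interval 79.5 to 85.9) and 396 of 630 of replicate 2 (62.9%, 59.0 to 66.6) held at least 1 SOX2 UMI. In LG255 the share was 205 of 455 cells (45.1%, 40.4 to 49.8) in replicate 1 and 425 of 889 (47.8%, 44.5 to 51.1) in replicate 2. The level is given as CPM, the UMIs of a gene scaled to a fixed total of the summed cells. Epithelial SOX2 reached 241 CPM in LG252 replicate 1 and 176 in replicate 2, but 124 and 98.1 CPM in the LG255 pair. The libraries of the 2 animals did not overlap in share or level.

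The number of SOX2 UMIs per cell also differed between the libraries. In LG252 replicate 1, 104 epithelial cells had 1 UMI, 100 had 2 and 266 had 3 or more, up to 18; the last are 46.9% of all its epithelial cells. The same share of all epithelial cells was 22.2% in LG252 replicate 2, 10.5% in LG255 replicate 1 and 10.2% in LG255 replicate 2. A cell without a UMI is therefore not a cell shown to lack SOX2: when every cell was thinned to 2000 UMIs, the share fell to 34.7% and 25.8% in LG252 and 20.8% and 17.1% in LG255. Thinning left out 5, 10, 46 and 31 epithelial cells with fewer UMIs.

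**Figure D1:**
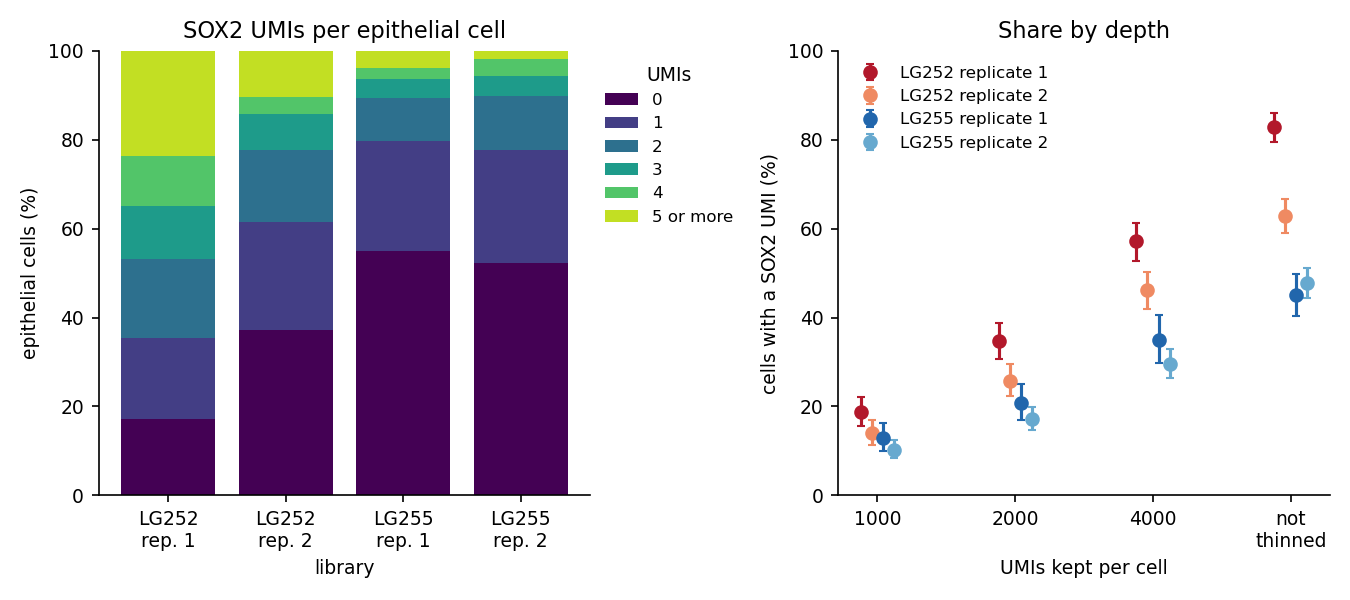
Left, the share of epithelial cells (%) of each library by the number of SOX2 UMIs they held. Right, the share with at least 1 SOX2 UMI (%) by the number of UMIs kept per cell, with exact binomial intervals; the order of the 4 libraries at 2000 UMIs runs from 34.7% to 17.1%, and the last position shows the cells at full depth.

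The comparison of classes asked where in the jaw SOX2 was transcribed. In mesenchymal cells it was found in 1 of 395 cells of LG252 replicate 1, where that cell held all 3 UMIs, and in 14 of 794 cells of replicate 2, a level of 3.14 and 3.73 CPM. None of the 19 and 106 mesenchymal cells of LG255 held a SOX2 UMI, and a limit of 3 counts allows a share of cells with a UMI of up to 15.8% and 2.83%. Median depth was lower in these cells than in the epithelium (1933, 3763.5, 5044 and 3343.5 UMIs). At 2000 UMIs per cell SOX2 was left in 1 of 190 and 2 of 545 mesenchymal cells of LG252.

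Across the library sums SOX2 was 6.09 log2 units higher in epithelial than in mesenchymal cells (SE 1.02, edgeR quasi-likelihood test with Benjamini-Hochberg adjustment, adjusted p = 0.00125), and higher in 4 of 4 libraries. In this comparison 27.6% of the features tested passed at an adjusted p of 0.05. Against the limit set by 0 counts (3 counts per library), epithelial SOX2 was at least 4.51-fold higher in LG255 replicate 1 and at least 15.4-fold higher in LG255 replicate 2. The nearest annotated gene on chromosome 6, LOC129332015, lies 679358 bp away and had no fit here. Of the next genes, DCUN1D1 (log2 difference 0.80, adjusted p = 0.180), ATP11B (0.68, 0.0833) and DNAJC19 (0.11, 0.836) did not pass the same edgeR test.

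**Figure D2:**
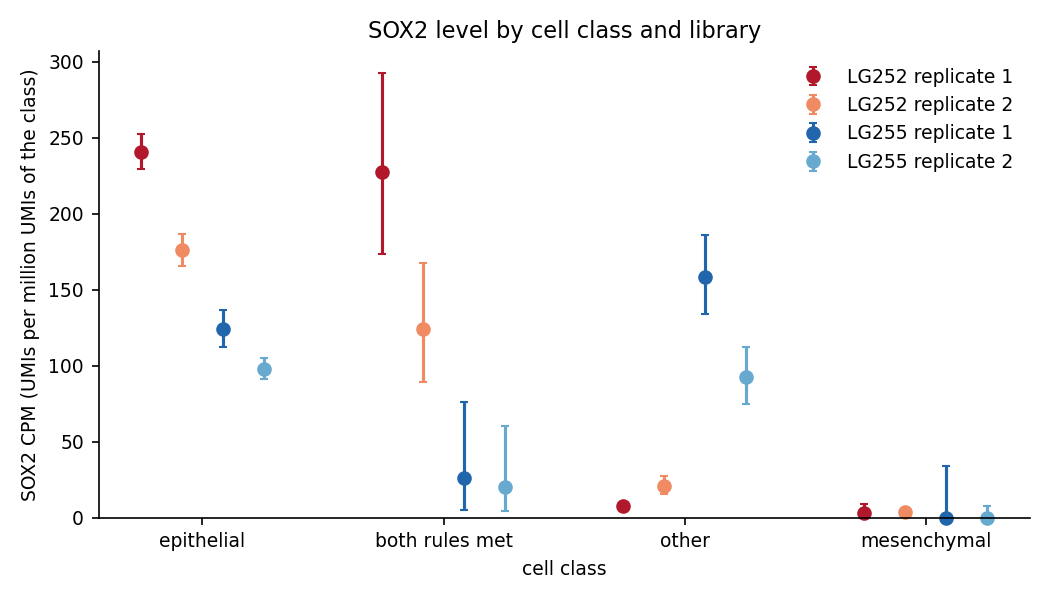
SOX2 level (CPM) by cell class, with 1 point for each library and exact Poisson intervals. Epithelial cells lie between 98.1 and 241 CPM and mesenchymal cells between 0 and 3.73, while the other cells of LG255 (158 and 92.4 CPM) lie far above those of LG252 (8.06 and 21.1).

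The cells of neither class held SOX2 in both animals, at very different levels. In LG252, 57 of 3377 such cells (1.69%) and 35 of 757 (4.62%) had a SOX2 UMI, at 8.06 and 21.1 CPM. In LG255 the counts were 53 of 270 (19.6%) and 42 of 283 (14.8%), at 158 and 92.4 CPM. The other cells thus reached the epithelial level in LG255 and lay far below it in LG252. Taking the libraries as a set, the epithelial excess over other cells, 1.72 log2 units (SE 0.84), did not pass (edgeR adjusted p = 0.194, with 16.9% of features passing). Within LG252 alone it was 4.03 (SE 0.55, adjusted p = 0.0128) and within LG255 alone -0.14 (SE 0.19, adjusted p = 0.667). The difference between the animals, 4.12 log2 units (SE 0.60), did not pass in an edgeR interaction fit over all libraries (adjusted p = 0.103). In that fit 0 of 12275 features passed (1414 at an unadjusted p under 0.05), and DESeq2 called 142, SOX2 among them (adjusted p = 0.000253). The edgeR difference was 3.22 without LG252 replicate 1 and 5.05 without LG252 replicate 2. It was 3.93 without LG255 replicate 1 and 4.27 without LG255 replicate 2. Each of these fits leaves 1 library for an animal, so only the size is given.

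Most SOX2 UMIs of the other cells lay in cells with epithelial transcripts, though many of the other cells with a SOX2 UMI did not hold enough of them. Cells that missed the LOC129339097 rule but held 5 or more UMIs of the epithelial check list numbered 82, 70, 76 and 82 in the 4 libraries (the LG252 pair first), and their SOX2 level was 159, 102, 345 and 133 CPM in that order. These cells are a small share of the other class in LG252 and a large one in LG255. They held 71 of 98, 36 of 58, 127 of 147 and 77 of 100 SOX2 UMIs of the other class. The remaining other cells held SOX2 at 2.31 and 9.17 CPM in LG252 and 35.8 and 45.7 CPM in LG255. Cells below the minimum were still 26 of the 57 other cells with a SOX2 UMI in LG252 replicate 1 and 16 of 35 in replicate 2. In LG255 they were 15 of 53 and 15 of 42.

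Blood-derived cells of the same class held little SOX2 in LG252. Other cells with 5 or more UMIs of immune genes (such as PTPRC, CD74 and the C1Q genes) numbered 2060, 270, 30 and 23 in the 4 libraries and gave 2.06, 2.43, 5.25 and 0 CPM of SOX2, with upper Poisson limits of 3.26, 7.09, 29.2 and 34.6 CPM. The 13, 44, 17 and 9 cells with 5 or more UMIs of endothelial genes (such as PECAM1, CDH5 and KDR) held no SOX2 UMI, which allows up to 62.4, 14.9, 44.7 and 176 CPM. The last limit is above the epithelial level of its library, so a low level in vessel cells was not detectable there. Glial markers reached that minimum in only 2 and 2 of the other cells of LG252 and in none of LG255, so the level of SOX2 in glia, where mammals express it, could not be measured.

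When epithelium was instead defined by 5 or more UMIs of the check list, a choice made after the data were seen, SOX2 was 3.14 log2 units higher in epithelial than in other cells (SE 0.80, edgeR adjusted p = 0.0238). Its level in the other cells then was 3.32 and 13.0 CPM in LG252 and 42.8 and 41.1 CPM in LG255.

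The level of SOX2 across the counts of LOC129339097 is given as a description, since that gene chose the cells. In LG252, SOX2 was at 117 and 85.9 CPM in cells with 5 to 9 UMIs of LOC129339097, just outside the rule, and at 210 and 119 CPM in cells with 10 to 19, just inside. In LG255 it was at 225 and 139 CPM just outside and at 169 and 61.3 CPM just inside. Cells with 100 or more UMIs of LOC129339097 held 243, 196, 114 and 98.1 CPM. Cells with no UMI of LOC129339097 and outside the mesenchymal class held 1.99 and 2.02 CPM in LG252 and 98.0 and 41.1 in LG255.

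**Figure D3:**
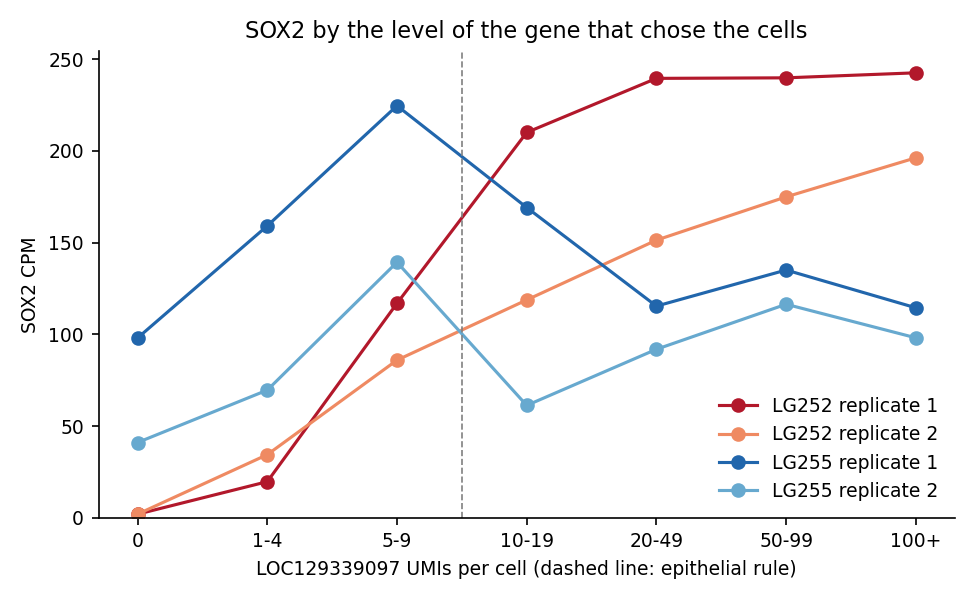
SOX2 level (CPM) in epithelial and other cells by the number of LOC129339097 UMIs per cell, with 1 line for each library and the threshold of 10 UMIs dashed. The LG252 lines start at 1.99 and 2.02 CPM and end at 243 and 196, while the LG255 lines peak at 225 and 139 CPM just below the threshold.

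Other SOX genes and epithelial regulators were tested beside SOX2 in the class comparison, from lists made with earlier results of these data known. The median log2 difference between epithelium and mesenchyme was 1.27 over the 10 SOX family genes tested, 5.08 over 21 epithelial transcription factors and 0.05 over all features. Of the 10 SOX genes 4 rose in epithelium and 1 fell, beside 15.0% and 12.6% of all features. SOX7, an SOXF-group factor known from endothelium in mammals, stood at 234, 197, 54.1 and 61.1 CPM in the epithelial cells of the 4 libraries and was 6.97 log2 units above mesenchyme (SE 0.81). SOX15 (5.24, SE 0.74), SOX6 (3.16, SE 0.53) and SOX21 (4.80, SE 1.15) rose too, and SOX8 fell by 2.33 (SE 0.49). The endothelial marker list was at 2.03 to 10.5 CPM in the epithelial cells. Within LG252 alone SOX8 did not pass (-1.65, edgeR adjusted p = 0.0517).

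Of the 21 epithelial transcription factors 16 were higher in epithelium and 2, TBX3 and PAX9, were lower, beside the same shares of all features (15.0% and 12.6%). TP63, the master regulator of stratified epithelium, stood at 62.2 and 71.0 CPM in LG252 and 134 and 96.8 in LG255 and was 6.13 log2 units above mesenchyme (SE 0.69). GRHL3 (7.07, SE 0.63) and ELF3 (6.08, SE 0.66), both factors of epithelial differentiation, also passed the edgeR test, and TBX3 fell by 5.15 (SE 0.42). Of 16 epithelial stem and lamina genes 4 rose, among them BCL11A (2.05, SE 0.32) and the R-spondin receptor LGR4 (1.46, SE 0.27), and IGFBP5 fell by 3.63 (SE 0.70). Of 16 WNT pathway genes 4 rose and 5 fell. For the stem and WNT lists the shares over all features are again 15.0% and 12.6%, and no difference of these lists from other genes was tested. The ligand WNT7B was higher in epithelium by 5.20 (SE 0.75), and RNF43, a feedback inhibitor of WNT receptors, by 1.56 (SE 0.43). Other inhibitors went the opposite way: APCDD1 fell by 4.41 (SE 0.53), NKD1 fell by 4.31 (SE 0.59) and AXIN2 fell by 3.74 (SE 0.61). LGR4 did not pass within LG252 alone (1.49, edgeR adjusted p = 0.0966).

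Between the animals, epithelial SOX2 was higher in LG252. The levels given above were apart by 1.04 log2 units (SE 0.23, edgeR adjusted p = 0.00897), in a comparison where 33.3% of 12591 features passed, 20.5% as higher and 12.8% as lower in LG252. With every cell thinned to 2000 UMIs the difference was 0.76 (SE 0.26, adjusted p = 0.0371). Cells with SOX2 made up a mean of 72.9% ± 14.2 of the LG252 epithelium (SD, n = 2) and 46.4% ± 1.95 of that of LG255 (SD, n = 2), which are 26.4 points apart. The exact two-sided permutation test over libraries gave p = 0.333, the smallest that 2 against 2 libraries allow, and at 2000 UMIs per cell the difference was 11.3 points.

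Immune transcripts in the epithelial cells moved with the same contrast. Their summed level was 175 and 73.6 CPM in LG252 and 4.73 and 21.3 CPM in LG255. Of 5 tested immune genes 4 (PTPRC, CD74, C1QB and C1QC) were higher in LG252, beside 20.5% of all features. With every epithelial cell that held a UMI of PTPRC, CD74 or CD79B left out, the SOX2 difference was 1.08 log2 units (SE 0.23, edgeR adjusted p = 0.00481). The part of the mitochondrial share in the difference was not tested, beyond a fit without cells above 20% mitochondrial UMIs (1.06, SE 0.22).

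Several SOX genes differed between the animals in the same direction as SOX2. Of 10 SOX family genes tested 5 were higher in LG252 and 1, SOX13, was lower, beside 20.5% and 12.8% of all features, with a median of 0.89 log2 units against -0.02 over all features. SOX7 differed by 2.01 (SE 0.23) and SOX9, a factor of hair and tooth progenitors in mice, by 1.39 (SE 0.20; 104 and 116 CPM against 45.2 and 45.5). SOX21, a close relative of SOX2 in its DNA-binding domain, was at 50.2 and 30.8 CPM in LG252 and 10.6 and 9.35 in LG255 (2.14, SE 0.29). SOX8 differed by 2.02 (SE 0.44).

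Of 23 epithelial transcription factors 13 were higher in LG252 and 4 were lower (TP63, GRHL2, FOXE1 and MEIS2). OVOL1, FOXQ1, TFAP2C and ELF3 were higher by 3.49, 2.58, 2.27 and 2.65 log2 units (SE 0.32, 0.27, 0.24 and 0.30). Of 16 stem and lamina genes 7 were higher, including MYC (3.80, SE 0.29) and KLF4 (2.08, SE 0.23), which are also quickly induced by many stimuli, and ZFP36L1 (1.34, SE 0.21). IGFBP5 and LGR6 were lower, IGFBP5 by 1.71 on the log2 scale (SE 0.21). Of 18 WNT genes 5 were higher and 3 lower, shares near the 20.5% and 12.8% of all features that also stand beside the counts of the transcription factors and stem genes. LEF1, a nuclear effector of WNT signalling, was at 3.25 and 5.98 CPM in LG252 and 18.9 and 14.4 in LG255 and fell by 1.73 (SE 0.31). The secreted inhibitor SFRP1 fell by 3.04 (SE 0.60), and the ligands WNT4 and WNT10A were higher by 1.08 and 0.86 (SE 0.23 and 0.24). With a library left out the difference was 0.87 to 1.29 for WNT4 and 0.57 to 1.16 for WNT10A. Such a fit leaves 1 library for an animal, so only the size is given. Neither ligand passed in all alternatives.

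Within the epithelium, the question was whether SOX2 lies in one kind of cell. Cells thinned to 2000 UMIs were put into marker groups when they held 2 or more UMIs of a list. Basal cells carry hemidesmosome and laminin genes such as COL17A1, LAMB3 and ITGB4. Their SOX2 level was 239, 173, 161 and 127 CPM in the 4 libraries (LG252 replicates 1 and 2, LG255 replicates 1 and 2) against 221, 148, 133 and 102 in the remaining epithelial cells. It was higher in basal cells of 4 of 4 libraries by less than the counting intervals, a log2 difference of 0.19 (SE 0.12, interval of 2 SE -0.06 to 0.43, edgeR adjusted p = 0.421 over all features, of which 6.29% passed). Without thinning the direction was not shared: basal cells of LG255 replicate 1 lay below the rest (119 against 151 CPM), and the log2 difference was 0.03 (SE 0.11).

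Dividing cells, marked by genes such as MKI67 and TOP2A, held SOX2 at 202, 208, 118 and 145 CPM against 231, 157, 147 and 105 in the rest. They were lower in replicate 1 and higher in replicate 2 of each animal, and the log2 difference was -0.11 (SE 0.23, interval -0.57 to 0.34, edgeR adjusted p = 0.825, with 14.3% of features passing). SOX2 was therefore detected in every library both in cells that met the dividing minimum and in cells that did not. The latter were not shown to be non-dividing. Without thinning the dividing group held 134, 122, 61 and 106 cells, against 47, 53, 34 and 55 with it. Its SOX2 level was then 265, 188, 110 and 103 CPM against 230, 172, 127 and 97.3 in the rest. The Poisson intervals were apart only in LG252 replicate 1 (244 to 286 against 217 to 243 CPM). The log2 difference was -0.09 (SE 0.13).

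The dental epithelial group was taken by the summed UMIs of the tooth factors SP6, DLX3, FOXI3, IRX1, ISL1 and TBX1. Of these only IRX1, ISL1 and TBX1 had enough counts to be tested in its fit. After thinning its cells were few: 13, 24 and 11 in the 3 libraries that reached the minimum of 10. Without thinning, where deeper cells reach 2 marker UMIs more easily, it held 185, 231, 51 and 108 cells in the 4 libraries. They held SOX2 at 269 CPM (7 UMIs) in LG252 replicate 1, 146 (7 UMIs) in LG252 replicate 2 and 182 (4 UMIs) in LG255 replicate 2, against 228, 162 and 107 CPM in the rest. The fitted difference after scaling by the trimmed mean of M-values (TMM) was -0.23 log2 units (SE 0.41, interval -1.05 to 0.58, edgeR adjusted p = 0.957, with 0.666% of features passing). The CPM, however, was higher in 2 of the 3 libraries. Without thinning, dental cells of LG252 lay above the rest with no overlap of Poisson intervals (262 against 226 and 201 against 154 CPM). Those of LG255 lay below it with overlapping intervals (91.1 against 131 and 86.0 against 100 CPM). That fit over 4 libraries gave -0.08 log2 units (SE 0.15, edgeR adjusted p = 0.919).

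Differentiated oral cells with MUC22 or TGM4 were found in LG252, with 17 and 30 cells, and reached only 0 and 1 cell in LG255. Their SOX2 level was 206 and 167 CPM against 229 and 161 in the rest, a fitted difference of -0.51 (SE 0.40, interval -1.31 to 0.29, edgeR adjusted p = 0.580, with 7.51% of features passing). As for the dental cells, the fit lies below what the CPM gives: the median over all features was -0.26 in this fit, and without thinning the SOX2 difference was -0.00426. With p-values adjusted over the 4 marker groups the smallest was 0.397. None of these 4 groups was thus shown to differ in SOX2 from the rest of the epithelium, within the intervals given.

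Ameloblast, chemosensory, secretory and NTRK3 or COL8A1 groups held at most 11 thinned cells in a library, too few for that fit. The markers AMELX, TRPM5, GNAT3, PLCB2 and AGR2 were lower in the epithelial class than in the other cells, as were 1230 of all 12275 features (edgeR test). Ameloblast, chemosensory and secretory groups inside the LOC129339097 rule may therefore not stand for those cell types. Without thinning, where deeper cells reach 2 marker UMIs more easily, 3 of them could be fitted. Cells with NTRK3, a neurotrophin receptor, or COL8A1, a short-chain collagen, numbered 26, 25, 40 and 47. Their SOX2 level was 188, 197, 52.8 and 48.8 CPM against 245, 175, 134 and 101 in the rest.

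In both LG255 libraries the NTRK3 or COL8A1 cells lay below the rest with no overlap of the Poisson intervals (32.7 to 80.6 against 121 to 147 CPM, and 30.2 to 74.6 against 93.9 to 108), and so did those of LG252 replicate 1, narrowly (152 to 231 against 233 to 257). In LG252 replicate 2 they lay above the rest, with overlapping intervals. The log2 difference over 4 libraries was -0.57 (SE 0.22, edgeR adjusted p = 0.189) and did not pass. With cells thinned to 2000 UMIs and 1 marker UMI it was again -0.57 (SE 0.34, adjusted p = 0.520). The chemosensory (-0.18, SE 0.17) and secretory (-0.07, SE 0.18) differences without thinning did not pass either (edgeR adjusted p = 0.857 and 0.910). This chemosensory group took 86 cells of LG252 replicate 1, 15.2% of its epithelial cells. Of its 5 markers only ITPR3 had enough counts in epithelial cells to be tested between the animals. The group may thus rest mainly on ITPR3 and was not shown to be chemosensory cells.

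**Figure D4:**
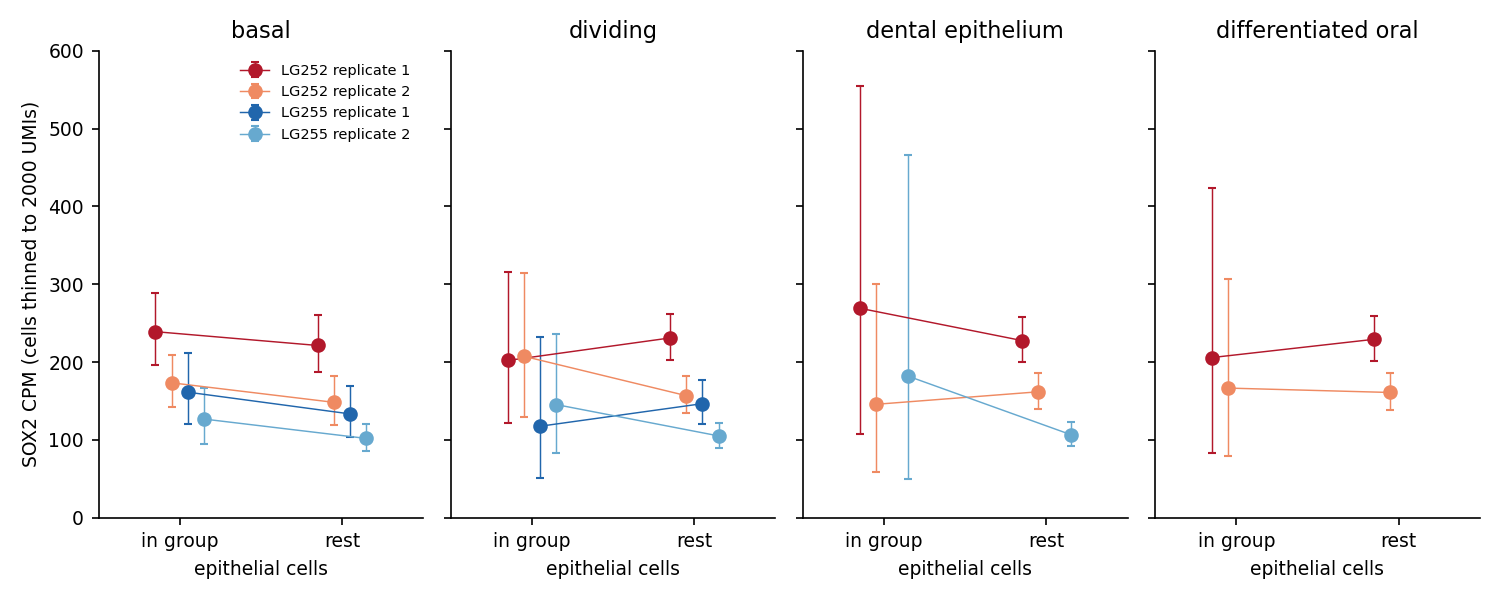
SOX2 level (CPM, cells thinned to 2000 UMIs) in each marker group and in the remaining epithelial cells, with exact Poisson intervals and a line joining the values of a library; libraries with fewer than 10 cells in a group are left out. Basal cells lie above the rest in 4 of 4 libraries, by 239 against 221 CPM in LG252 replicate 1 and 127 against 102 in LG255 replicate 2, and all 4 panels have overlapping intervals.

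Genes that go with SOX2 were sought by comparing epithelial cells with and without a SOX2 UMI at 2000 UMIs per cell, summed per library. There were 195, 160, 85 and 147 cells with SOX2 and 367, 460, 324 and 711 without, and the thinning itself moved cells from the first set to the second. The 2 sets were not alike in other ways. At 2000 UMIs the median of detected genes was 808, 830.5, 820 and 730 with SOX2 and 785, 789, 780 and 720 without. Median full depth was 11589, 8930, 6572 and 8540 UMIs with SOX2 and 12317, 8297.5, 8048.5 and 9275 without. The median mitochondrial share was 1.07%, 1.29%, 5.37% and 3.93% with SOX2 and 1.13%, 1.55%, 4.35% and 3.71% without. Of 4886 features 13 passed (0.266%; edgeR with the library as a block), 4 higher and 9 lower in cells with SOX2, while 417 had an unadjusted p under 0.05. DESeq2 called 0 (75 at an unadjusted p under 0.05), and so did edgeR without the library block (48). The calls thus depend on the test. Of the 13, 6 have only a locus number, and 5 named genes had a CPM that moved the same way in 4 of 4 libraries.

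KLF5, a zinc-finger factor of proliferating epithelial cells in mammals, was higher in cells with SOX2. In the marker group fits here KLF5 was lower in the dividing and basal groups and higher in the differentiated oral group. There 14.3%, 6.29% and 7.51% of features passed in that order (edgeR test). It stood at 264, 528, 259 and 211 CPM with SOX2 and 207, 293, 148 and 144 without (log2 difference 0.56, SE 0.12, edgeR adjusted p = 0.0437; chromosome 3, 21920161 to 21956157). The 2 animals gave similar sizes, 0.57 in LG252 and 0.54 in LG255, but KLF5 passed in neither alone (edgeR adjusted p = 0.576 and 0.247). With another random seed for the thinning the difference was 0.33 (adjusted p = 0.408). With any 1 of the 4 libraries left out it was 0.48 to 0.65 and did not pass (adjusted p = 0.0576 to 0.323).

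HS3ST5, which encodes a heparan sulfate sulfotransferase (chromosome 1, 102097103 to 102412581), stood at 20.5, 28.1, 171 and 163 CPM with SOX2 and 16.3, 11.96, 94.1 and 58.4 without (1.03, SE 0.21, edgeR adjusted p = 0.0335). It was several times more abundant in LG255 than in LG252. Without LG255 replicate 2 the difference was 0.74 (adjusted p = 0.578).

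SOSTDC1, a secreted inhibitor of BMP and WNT signals that limits tooth number in mice, was lower in cells with SOX2. Its level was 69.2, 90.6, 58.8 and 27.2 CPM with SOX2 and 89.9, 116, 114 and 289 without (-1.29, SE 0.28, edgeR adjusted p = 0.0482; chromosome 11, 54339105 to 54343979). Most of the size came from 1 library: without LG255 replicate 2 the difference was -0.55 (adjusted p = 0.573). Without LG252 replicate 1 it was -1.61 (adjusted p = 0.0576).

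TRABD2B, whose mammalian product is a membrane protease that inactivates WNT proteins (chromosome 5, 92355427 to 93056928), was listed at 0, 0, 70.6 and 10.2 CPM with SOX2 and 6.81, 20.7, 128 and 86.5 without (-2.01, SE 0.38, edgeR adjusted p = 0.0147). In LG252 replicate 1 the 6.81 CPM rests on few UMIs, so the 0 there does not show a lower level with SOX2. S100A10, the partner of annexin A2 (chromosome 1, 250218725 to 250240682), was at 1549, 1909, 2300 and 2884 CPM with SOX2 and 1854, 2448, 2772 and 3662 without (-0.39, SE 0.08, adjusted p = 0.0474). Without LG255 replicate 2 the adjusted p was 0.472 for TRABD2B and 0.489 for S100A10, and S100A10 also missed the threshold without either library of LG252 (0.0940 and 0.284). With another seed for the thinning S100A10 differed by -0.25 (adjusted p = 0.312) and without thinning by -0.15 (adjusted p = 0.340).

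CD24 and CXCL14 passed but did not move alike in all libraries, and are named after their values were seen. CD24, a surface glycoprotein of many progenitor cells, was at 89.7, 18.8, 147 and 265 CPM with SOX2 and 36.8, 26.1, 18.5 and 16.2 without (2.33, SE 0.37, edgeR adjusted p = 0.00293). The chemokine CXCL14 was at 0, 6.25, 129 and 490 CPM with SOX2 and 2.72, 10.9, 92.6 and 32.3 without (2.28, SE 0.42, edgeR adjusted p = 0.0114). For both the largest gap was in LG255 replicate 2, and without it CD24 did not pass (1.34, adjusted p = 0.185). No fit of CXCL14 without LG255 replicate 2 is reported. In both LG252 libraries the CPM of CXCL14 was lower with SOX2, but these values rest on few UMIs and show no direction. The count of passing alternatives given for CXCL14 below therefore does not show whether its call rests on LG255 replicate 2. All 7 genes kept their direction wherever they were tested again, but passed in only some alternatives: KLF5 and S100A10 in 8 of 21, SOSTDC1 in 11 of 21, HS3ST5 in 14 of 21, CD24 in 16 of 21, TRABD2B in 10 of 13 and CXCL14 in 15 of 17.

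The fixed lists added little to this. Of the lists, the epithelial transcription factors had 1 of 16 tested genes passing (KLF5). The SOX family had 0 of 7, the stem and lamina genes 0 of 14, the WNT genes 0 of 9, and the basal and dividing markers 0 of 7 each by the edgeR test. At an unadjusted p under 0.05 these lists had 4, 0, 0, 1, 2 and 1 genes, and DESeq2 called none of them. The medians of the lists were 0.16, 0.10, 0.13, 0.06, 0.10 and -0.02 log2 units in that order, against 0.00 over all features. The check markers of epithelium had a median of 0.28, with 0 of 7 passing and 3 at an unadjusted p under 0.05.

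The association differed between the animals for 10 of 4886 features (0.205%; edgeR interaction test with the library as a block; 307 at an unadjusted p under 0.05), and DESeq2 called 2. In LG255 several genes were scarcer with SOX2 than without, though not all in both libraries (LOC129341161: 5.88 against 6.17 CPM in replicate 1, 0 against 402 in replicate 2). The clearest was LOC129342885, a locus with no gene name here, at 206 and 259 CPM with SOX2 and 5122 and 4741 CPM without in LG255, against 1008 and 734 with and 1101 and 484 without in LG252 (difference of the log2 differences, LG252 minus LG255, 4.63, SE 0.21). It kept its direction under 9 of 9 alternatives (3.13 to 5.01), of which those with a library left out give only a size. In LG255 the groups with and without SOX2 did not overlap, and in LG252 they did.

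**Figure D5:**
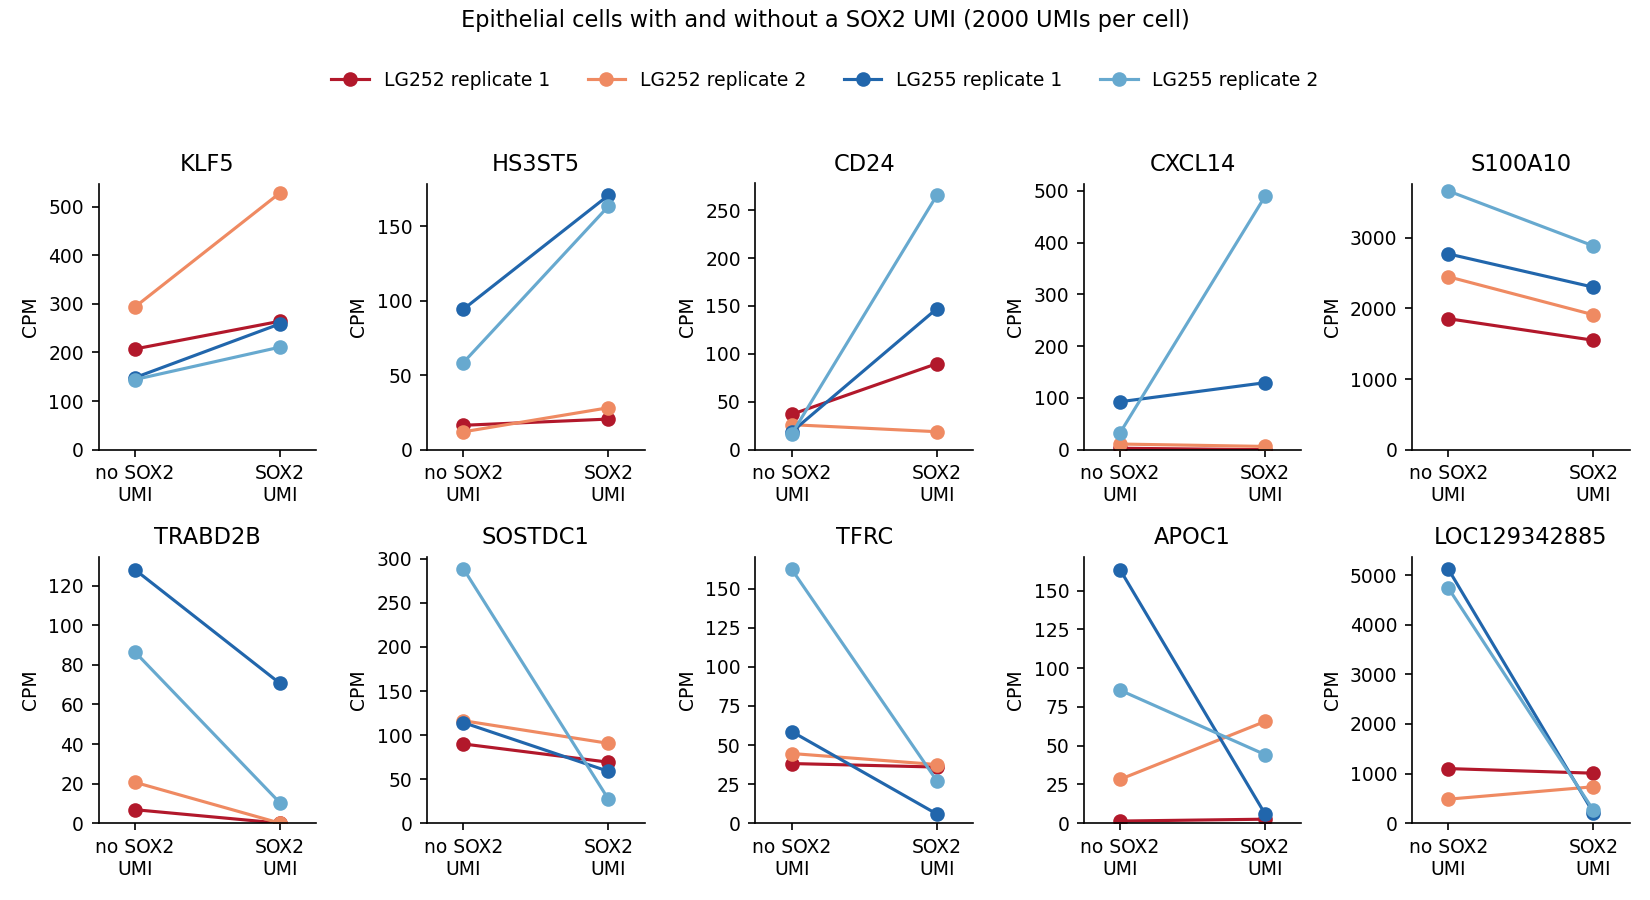
Level (CPM) of 10 genes in epithelial cells without and with a SOX2 UMI, at 2000 UMIs per cell, with 1 line for each library. KLF5 and HS3ST5 rise and S100A10, TRABD2B and SOSTDC1 fall in 4 of 4 libraries, TRABD2B from few UMIs in LG252 replicate 1. LOC129342885 falls from 5122 to 206 and from 4741 to 259 CPM in LG255. In LG252 it moves from 1101 to 1008 CPM in replicate 1 and from 484 to 734 in replicate 2.

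Across single cells thinned to 2000 UMIs the correlation of SOX2 with any gene was weak, at counts that limit its size. Over 2449 epithelial cells at 2000 UMIs each, 3583 features were compared by Pearson's r of log counts within each library, as a description without a test. The mean r over libraries ran from -0.11 to 0.11 with a median of 0.00684. The 5 highest that were positive in 4 of 4 libraries were DSP (mean r 0.114), which encodes desmoplakin of cell junctions, KLF5 (0.114), HS3ST5 (0.109), the mitochondrial gene BW219_gp07 (0.0998) and LOC129326082 (0.0993). For DSP the r was 0.0742, 0.131, 0.161 and 0.0919 in the 4 libraries. SOX2 averaged only 0.22 to 0.46 UMIs per thinned cell. The mean r of all 5 was higher at 4000 than at 1000 UMIs per cell (DSP 0.136 against 0.064, HS3ST5 0.160 against 0.072). With another seed for the thinning it was 0.085 for DSP and 0.041 for LOC129326082, so the order is not firm. The variance of SOX2 counts over their mean was 1.14 and 1.16 for the LG252 libraries and 1.65 and 1.30 for those of LG255, where 1 is the value of pure counting. Over the 4 libraries this ratio was 1.06 to 1.18 for TP63 and 0.98 to 1.12 for SOX21. It was 1.30 to 1.98 for KLF5, 1.62 to 1.90 for DSP, 1.47 to 2.73 for COL17A1 and 1.50 to 3.05 for MKI67.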

How the data were processed

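The authors deposited raw UMI counts per gene and cell barcode, made with Cell Ranger 7.1.0 per the file headers; the submitters' processing notes name Cell Ranger 2.1.0. The annotation release, use of intronic reads and cell calling are not given in the sources used here. Features, 23671 of 24025 found in the gene table of the assembly, kept the authors' names. No barcode was filtered out and doublets were kept; removing the 209 highest Scrublet scores (24 called automatically) was an alternative. Members and lists were chosen with earlier results of these data known. UMIs were summed per library and class, or after thinning each cell to 2000 UMIs, and tested with edgeR 4.0.16 (quasi-likelihood, TMM, filterByExpr, Benjamini-Hochberg at 0.05), with the library as a block except between animals; DESeq2 1.42.0 was an alternative. The tests were also tried on counts simulated with the mean levels and library sizes of the real sums. No effect of library on single genes was simulated. Of changes of 1 log2 unit the class, animal and SOX2 group fits recovered 8%, 30% and 70%. Of changes of 2 log2 units they recovered 75%, 89% and 97%. A difference near 1 log2 unit that did not pass between classes or animals may thus have been missed. Named genes had a symbol, adjusted p of at most 0.05 and 1 direction in 4 libraries (12 higher and 12 lower at most), with up to 4 passing genes per list. Replicate numbers do not pair libraries of the 2 animals (r of deviations -0.0915).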

Additional observations from a re-analysis of the deposited data

Results flagged for a closer look

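For 4 genes with a symbol and the locus LOC129342885, which was chosen after its values were seen, the difference between epithelial cells with and without a SOX2 UMI was not the same in LG252 and LG255, by the edgeR interaction test at an adjusted p of 0.05. The difference of the log2 differences (LG252 minus LG255) was 4.63 for LOC129342885, -2.88 for CD24, 2.16 for SOSTDC1, 3.12 for APOC1 (an apolipoprotein) and 2.55 for TFRC (the transferrin receptor). TFRC was at 35.9 and 37.5 CPM with SOX2 and 38.1 and 44.6 without in LG252, against 5.88 and 27.2 with and 58.6 and 162 without in LG255. APOC1 was at 2.56 and 65.6 CPM with SOX2 and 1.36 and 28.3 without in LG252, against 5.88 and 44.2 with and 164 and 85.8 without in LG255. The DESeq2 interaction test gave an adjusted p of 0.430 for CD24 and 0.999 for SOSTDC1, APOC1 and TFRC. With a library left out the edgeR difference was -4.15 to -2.15 for CD24 and 0.64 to 3.06 for SOSTDC1. It was 2.15 to 5.97 for APOC1 and 2.43 to 3.15 for TFRC. Such a fit leaves 1 library for an animal, so only the size is given. The levels of 5.88 CPM for TFRC and APOC1 in LG255 rest on few UMIs.

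Cells that met both class rules entered none of the comparisons and held 108 SOX2 UMIs. The 16, 30, 11 and 13 cells gave a SOX2 level of 227 and 124 CPM in the LG252 libraries, and of 26.1 and 20.6 CPM (3 UMIs each) in those of LG255.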

How the results depend on the processing

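The SOX2 excess of epithelium over mesenchyme passed in all alternatives (5.75 to 6.65 log2 units with a library left out). The difference between the animals was 0.76 to 1.28 over the alternatives and passed in those that kept all 4 libraries (1.02 with the replicate number as a block). With a library left out it was 0.80 to 1.28, where 1 animal has 1 library, so only the size is given. The excess over other cells was 0.82 to 2.62 with a library left out and passed at 3.14 with epithelium defined by the check list and at 4.03 within LG252, and was reversed at -0.14 within LG255. The difference in share between the animals was 4.82 points at 1000 UMIs per cell, 11.3 at 2000 and 16.4 to 36.5 with a library left out. Marker group differences changed sign without passing: basal -0.41 at 1000 UMIs per cell and -0.010 with 1 marker UMI, dividing 0.30 at 1000 UMIs, dental 0.11 with 1 marker UMI. The number of genes called by SOX2 was 25 and 6 with 5 and 20 UMIs of LOC129339097 as the rule, 40 with the check list, 175 without thinning, 8 and 34 at 1000 and 4000 UMIs, 22 with another seed, 58 without a filter on low counts, 6 and 55 within LG252 and LG255, 6 to 16 with a library left out, and 0 with DESeq2 or with no replicate block. Genes whose association differed between the animals numbered 156 without thinning, 2 with DESeq2 and 10 to 18 with a library left out. The causes were not tested. The check list rule and the fits within an animal were added after the data were seen. Depth limits the cells without a SOX2 UMI, and 2 animals limit every comparison between them.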
